A study of Homo sapiens with 4 samples.

Results

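The genes described here are 45 enzymes and enzyme regulators of glycolysis, the pentose phosphate pathway and the tricarboxylic acid (TCA) cycle. They were found by their symbols in the gene column of the count table, where all 45 were listed among 38137 genes. The count minimum, a mean of 20 reads per library, was met by 44 of the 45 and by 19393 genes in all. The gene that did not reach it was FBP1, the gluconeogenic fructose-1,6-bisphosphatase, with 6 reads in the combination group, 0 in the radiation-alone group, 2 in the exercise-alone group and 5 in the control group.

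The tissue was a xenograft of A549, a human non-small cell lung cancer (NSCLC) cell line, grown in the flank of male BALB/c athymic nude mice that were 6 weeks old, with 5 mice per group. The combination group received treadmill exercise and tumor radiation, the radiation-alone group received radiation only, the exercise-alone group received exercise only, and the control group received neither. Radiation was 2 Gy of X-rays and exercise was 30 min of running, each given in 3 sessions a week for 2 weeks. Each group was sequenced as 1 library, and whether a library held 1 tumor or several is not given in the sources used here. All groups therefore share 1 cell line and a host without T cells. With 1 library per group, no difference below has a replicate check or a p-value.

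Glycolysis splits glucose into pyruvate and yields ATP without oxygen. The pentose phosphate pathway branches off after the first step and yields NADPH and ribose, and the TCA cycle oxidizes the pyruvate carbon in the mitochondrion. HIF-1, a transcription factor that is stabilized when oxygen is low, binds the core motif ACGTG and induces most genes of the glycolytic route, while NRF2 induces genes of the NADPH-forming branch. A549 cells carry mutations of KEAP1 and STK11, and loss of KEAP1 leaves NRF2 constantly active.

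The windows below show where the hypoxia response core lies before the start sites of members that were high in irradiated tumors. They cover the 250 bases before an annotated start (RefSeq, GRCh38.p14), read 5′ to 3′ on the gene's strand, and capitals mark ACGTG or its reverse complement CACGT. HK2, ALDOC, PGK1 and PDK1 are shown because they were at least 1.5-fold higher with radiation alone than in control and held the core. PFKFB4 was the fifth member at least 1.5-fold higher in that comparison, but its window held no copy of the core and is not shown. Windows picked in this way do not tell whether the core goes with the ratio. RPIA is shown as the member that was lowest in that comparison, and its window also holds no ACGTG or CACGT. Variants of the core were not searched.
HK2 (chr2:74834920-74835169, plus strand): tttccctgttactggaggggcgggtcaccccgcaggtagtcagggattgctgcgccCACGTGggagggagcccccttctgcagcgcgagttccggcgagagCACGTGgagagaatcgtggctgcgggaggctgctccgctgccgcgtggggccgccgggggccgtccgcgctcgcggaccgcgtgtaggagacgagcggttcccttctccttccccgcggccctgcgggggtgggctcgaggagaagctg
ALDOC (chr17:28576896-28577145, minus strand): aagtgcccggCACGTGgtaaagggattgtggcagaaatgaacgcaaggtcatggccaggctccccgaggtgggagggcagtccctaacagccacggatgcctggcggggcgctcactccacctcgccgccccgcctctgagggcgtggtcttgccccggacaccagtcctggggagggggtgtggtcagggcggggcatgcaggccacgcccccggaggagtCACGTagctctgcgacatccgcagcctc
PGK1 (chrX:78103998-78104247, plus strand): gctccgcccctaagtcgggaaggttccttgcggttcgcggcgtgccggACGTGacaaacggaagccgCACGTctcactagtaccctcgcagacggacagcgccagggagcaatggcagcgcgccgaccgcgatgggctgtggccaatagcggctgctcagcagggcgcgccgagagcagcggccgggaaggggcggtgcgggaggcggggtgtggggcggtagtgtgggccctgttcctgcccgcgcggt
PDK1 (chr2:172555840-172556089, plus strand): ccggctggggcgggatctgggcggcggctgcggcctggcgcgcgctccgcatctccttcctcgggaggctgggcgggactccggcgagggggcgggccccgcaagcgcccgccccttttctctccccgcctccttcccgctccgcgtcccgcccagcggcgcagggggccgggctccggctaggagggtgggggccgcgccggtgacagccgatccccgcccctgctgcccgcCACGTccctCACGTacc
RPIA (chr2:88691423-88691672, plus strand): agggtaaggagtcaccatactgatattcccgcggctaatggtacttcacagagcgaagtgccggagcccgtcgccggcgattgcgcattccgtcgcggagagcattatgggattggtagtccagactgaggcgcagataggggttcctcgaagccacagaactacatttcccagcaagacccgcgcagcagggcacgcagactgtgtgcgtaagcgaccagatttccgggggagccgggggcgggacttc
In HK2 and at one place in ALDOC the core lies in the palindrome CACGTG, so that both strands match. HK2 and PDK1 each had 2 annotated start windows, and the one with more matches is shown. A search of windows that also include the 50 bases after the start found ACGTG in 19 of 43 members (44.2%), against 30.1% of 14071 compared genes and 21.4% of 35116 windows in all. PFKFB2 and OGDH were not in the promoter table. Of 17 members listed here as HIF-1 targets, 12 held the core, against 7 of 26 other members. The 19 compared members with the core had a median log2 ratio of 0.24 for radiation alone over control and 0.18 for the combination over exercise alone. The 23 without it had medians of 0.03 and 0.08. In the combination over radiation alone the order was turned, with medians of 0.02 with the core and 0.12 without it. The antioxidant response core TGACNNNGC, the motif NRF2 binds, was in 9 of 43 members (20.9%), against 18.5% of compared genes. Members with that core also had the higher median for radiation alone over control, 0.31 against 0.13, though not for the combination over exercise alone, where the medians were 0.11 and 0.16. GGGCGG, the GC box, was in 37 of 43, against 68.1%. Most members with the hypoxia response core are also glycolytic genes, so core and pathway cannot be told apart in these medians. A match of letters is a description of the window and not evidence that a factor binds there.

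Depth was similar in the 4 libraries, from 33432637 to 35408705 reads assigned to genes. Levels are CPM (reads scaled to a common library size) after TMM scaling, and intervals are exact at 95% and cover counting error only. All 6 epithelial markers were detected in every library, with summed levels of 6510 CPM in the combination, 5682 with radiation alone, 5753 with exercise alone and 5873 in control. KRT8 made up most of this sum, with 3842 CPM in the combination and 3409 CPM in control. For radiation alone over control and the combination over exercise alone, 2 of the 6 were higher in both. Another 2, EPCAM and KRT7, were lower in both. Markers of other cell types also differed between groups. Reads were aligned to the human genome, and whether these came from host or A549 cells was not tested. The 10 skeletal muscle markers summed to 47.6 CPM in the combination and 38.3 CPM with radiation alone, against 6.28 CPM with exercise alone and 5.26 CPM in control, where 4 of the 10, among them MYH1 and MYH2, were at 0. The 6 fibroblast markers summed to 185 CPM in the combination and 214 CPM with radiation alone, against 335 CPM with exercise alone and 328 CPM in control. The 7 macrophage and neutrophil markers summed to 497, 432, 366 and 376 CPM in the same order of groups, with PTPRC below the count minimum. These markers did not move together. CD68 had 3594 and 3526 reads in the irradiated libraries, against 1540 with exercise alone and 1583 in control, while CSF1R had 8208 and 8311, against 9221 and 9933. The 5 endothelial markers summed to 6.90 CPM in the combination, 10.9 CPM with radiation alone, 15.9 CPM with exercise alone and 19.8 CPM in control. Only 1 of the 5, PECAM1, met the count minimum, so this sum rests largely on that gene. The part of host cells in the results below was not tested. In a bulk tumor, fewer cells of a type and less RNA per cell cannot be told apart.

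Glycolytic genes dominated the set. The 45 members took 10791 CPM in the combination, 10339 CPM with radiation alone, 9915 CPM with exercise alone and 8733 CPM in control, and the 20 glycolytic genes took 8378, 8143, 7533 and 6433 CPM of these. Per kilobase of exon, GAPDH, the glyceraldehyde-3-phosphate dehydrogenase, had the highest level in every library, 700 CPM per kb in the combination and 513 CPM per kb in control. PKM, the pyruvate kinase of the last step, followed at 208 CPM per kb in the combination and 155 CPM per kb in control. Next in the control library came PGD, an NADPH-forming enzyme of the pentose phosphate pathway, at 126 CPM per kb, beside ALDOA, the main aldolase, at 124 CPM per kb. At the low end were PFKFB2, at 1.80 CPM per kb in the combination and 2.40 CPM per kb in control, PDK1 at 2.53 and 1.99, HK2 at 3.59 and 1.91, and ALDOC at 3.79 and 2.04.

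**Figure D1:**
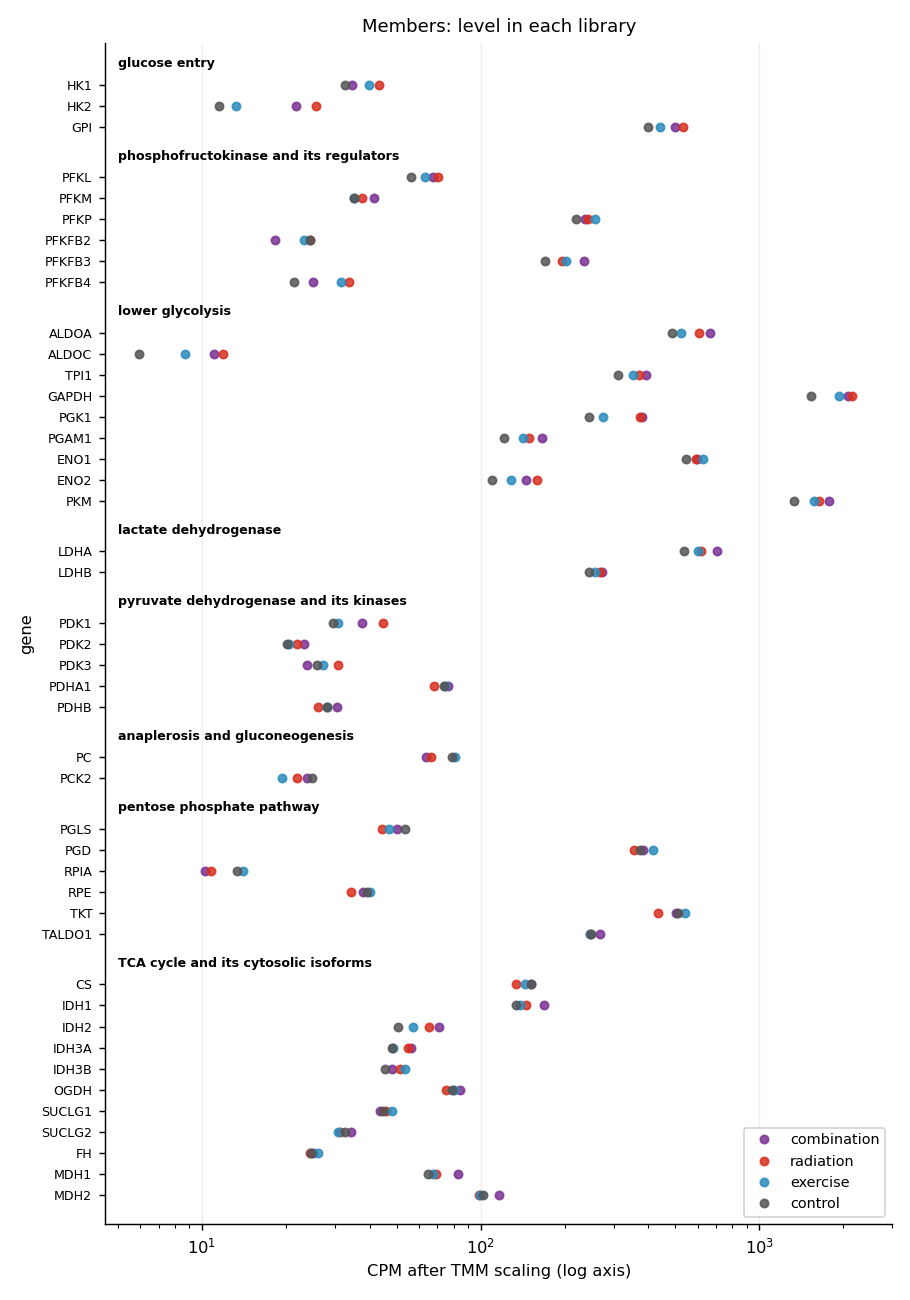
Level of each of the 44 members above the count minimum (rows, grouped by step of the pathway) in CPM after TMM scaling on a log axis, with 1 point for each of the 4 libraries. The control library (grey) holds the lowest value for 18 of the 20 glycolytic genes. For the pentose phosphate genes radiation alone is the lowest, except for RPIA, which is lowest in the combination.

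The control library was the lowest of the 4 for 25 of 44 members, and for 3872 of all 19393 genes compared. For glycolysis the count was 18 of 20, with PFKFB2 lowest in the combination and PFKM lowest with exercise alone. For the HIF-1 targets it was 17 of 17, but all of these except PDK1 are also among the 20 glycolytic genes. The lists were made with earlier results of these data known. All 17 had log2 ratios above 0 in each of the 3 comparisons with control, under every scaling tried. Their medians were 0.41 for the combination, 0.33 for radiation alone and 0.20 for exercise alone, against −0.01, 0.00 and 0.00 over all compared genes. Summed, the 17 took 8049 CPM in the combination, 7815 CPM with radiation alone, 7209 CPM with exercise alone and 6125 CPM in control. These comparisons share the 1 control library, so a low value in that library alone would raise all of them together. The 27 other members compared, mostly pentose phosphate, TCA and pyruvate dehydrogenase genes, had medians of 0.08, −0.01 and 0.03 in the same order.

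Large differences were few. Only HK2 passed 2-fold, the study's threshold, in any comparison, and it did so with radiation alone over control (1 of 44, 2.27% of members, against 1.89% of all genes higher and 0.897% lower). With FPKM in place of counts, and 0.1 added to each value, HK2 had a log2 ratio of 0.80 there and no member passed. The added 0.1 draws ratios toward 0, most of all at low values, and FPKM without it were not used. No member passed 2-fold in the combination over control, where 2.27% of all genes were higher and 1.75% lower, nor with exercise alone over control (0.83% and 0.696%). None did so in the combination over radiation alone (0.418% and 0.861%) or over exercise alone (2.92% and 3.06%). At 1.5-fold, 5 members were higher with radiation alone over control (HK2, ALDOC, PFKFB4, PGK1 and PDK1), which is 11.4% of members against 5.81% of all genes, and 3 in the combination over control (HK2, ALDOC and PGK1), which is 6.82% against 6.14%. In the combination over exercise alone 1 member was higher (HK2), against 7.67%, and 0 were higher with exercise alone over control (3.85%) or in the combination over radiation alone (2.31%). No member was at least 1.5-fold lower in any of the 5 comparisons, where the shares of all genes were 3.21% with exercise alone over control, 4.35% with radiation alone over control, 6.5% in the combination over control, 4.24% over radiation alone and 8.31% over exercise alone.

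Small differences leaned one way. Log2 ratios lay above 0 for 36 of 44 members with exercise alone over control (50.4% of all genes), for 29 with radiation alone over control (50.1%), and for 35 in the combination over control (47.9%). They lay above 0 for 28 of 44 in the combination over radiation alone (50.2%) and for 30 over exercise alone (47.9%). The medians over the 44 members were 0.09 for exercise alone and 0.12 for radiation alone over control, 0.17 for the combination over control, 0.08 over radiation alone and 0.12 over exercise alone. The first 3 and the last depended on scaling, with lowest values of 0.05, 0.05, 0.10 and 0.07 under the scalings tried. With total-count scaling 29, 27, 31, 28 and 29 of the 44 lay above 0 in the same order.

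The design gives each treatment 2 comparisons that share no library. Radiation was compared without exercise (radiation alone over control) and with it (combination over exercise alone). Of 44 members, 21 lay above 0 in both, against 32.6% of all genes, and 6 lay below 0 in both, against 34.6%. The 21 included 15 of the 20 glycolytic genes and 14 of the 17 HIF-1 targets, and none of either list was below 0 in both, except PFKFB2 under 5 of 6 other scalings. The 6 below were PC, PGD, RPIA, RPE, TKT and FH, of which 4 belong to the pentose phosphate pathway. With a log2 ratio of at least 0.32 in both, 3 members were higher (HK2, ALDOC and PGK1), against 7.6% of all genes. Both irradiated libraries stood above both others for 20 of 44 members, against 26.3% of all genes, and below both for 4 (PC, RPIA, RPE and TKT), against 27.5%.

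**Figure D2:**
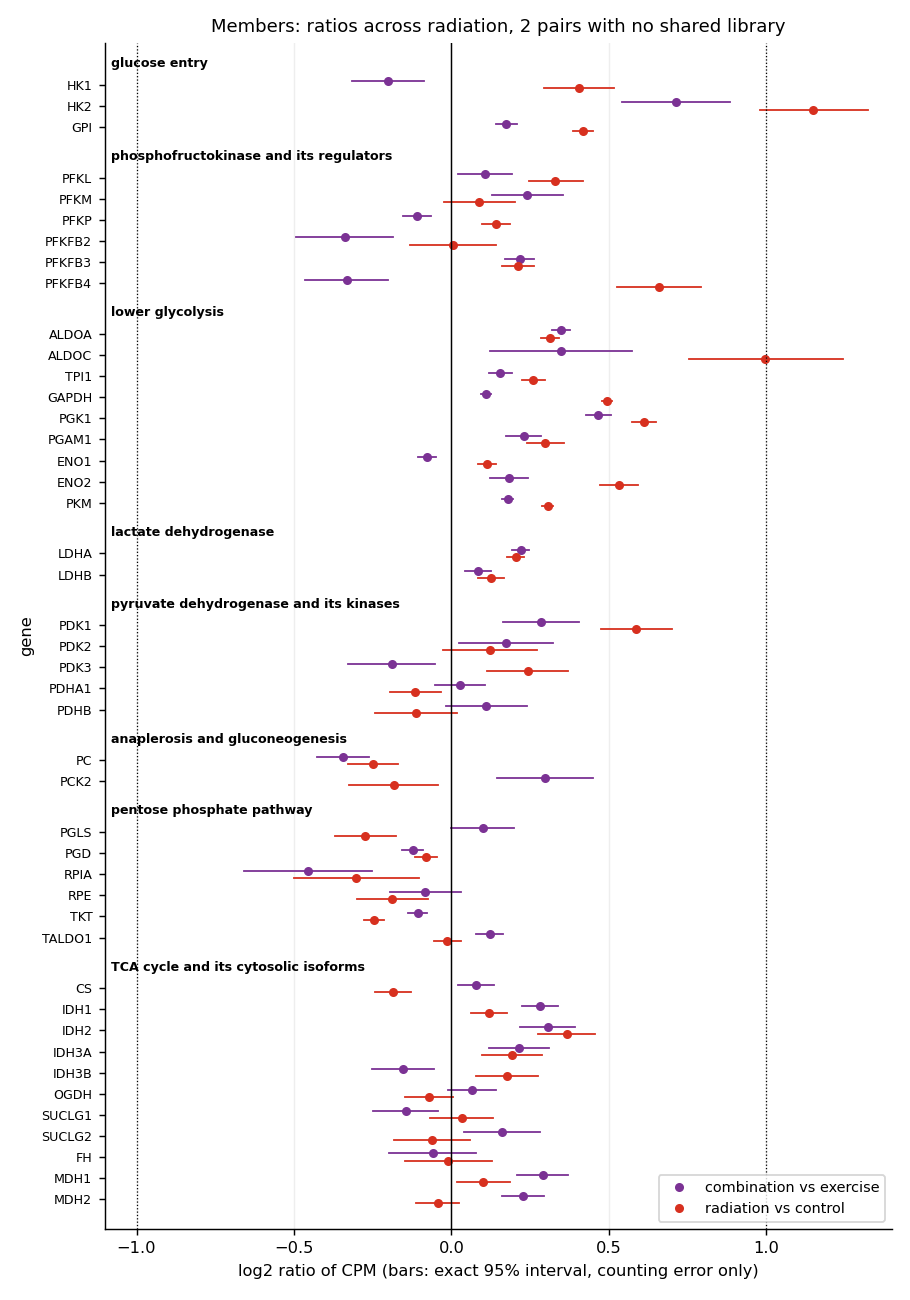
Log2 ratios of CPM (x axis) for 44 members (rows) in the 2 comparisons across radiation that share no library, with exact 95% intervals for counting error. Dotted lines mark 2-fold. HK2, ALDOC and PGK1 lie right of 0 in both comparisons, PC, RPIA and TKT lie left of 0 in both, and HK1 and PFKFB4 lie on opposite sides.

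HK2, the inducible hexokinase that traps glucose in the cell, had the largest difference of any member. It had 713 reads in the combination and 892 with radiation alone, against 459 with exercise alone and 413 in control. Both irradiated libraries were high and the others low, with no overlap. The log2 ratio was 1.15 for radiation alone over control (interval 0.98 to 1.32), or 2.22-fold, and 0.71 for the combination over exercise alone (0.54 to 0.89), or 1.64-fold. HK2 lies on chromosome 2 of GRCh38 (74834127 to 74893359). HK1, the hexokinase present in most tissues, had 1134 reads in the combination, 1502 with radiation alone, 1375 with exercise alone and 1165 in control, so that each treatment alone was higher than control and the combination was close to it. HK2 made up 38.6% of the reads of both hexokinases in the combination (Wilson interval 36.4 to 40.8) and 37.3% with radiation alone (35.3 to 39.2), against 25.03% with exercise alone (23.1 to 27.1) and 26.2% in control (24.1 to 28.4). Such a share compares genes within a library and does not depend on scaling. GPI, the isomerase of the next step, had 16309 and 18498 reads in the combination and with radiation alone, against 15247 with exercise alone and 14232 in control.

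ALDOC, an aldolase best known from brain, had fewer reads and a difference of similar size. It had 363 reads in the combination and 414 with radiation alone, against 301 with exercise alone and 213 in control. Control was lowest and the irradiated libraries highest. Its log2 ratio was 0.995 for radiation alone over control (0.76 to 1.24), a 1.99-fold difference just below the 2-fold threshold that HK2 passed. In the combination over exercise alone it was 0.35 (0.12 to 0.57). ALDOC was also a larger share of ALDOA and ALDOC reads in the treated groups, at 1.64% in the combination, 1.93% with radiation alone and 1.64% with exercise alone, against 1.21% in control. ALDOA had 21827 and 21040 reads in the irradiated libraries with and without exercise, against 18097 with exercise alone and 17402 in control. Nearly the same reads were counted for LOC112694756, a gene that overlaps ALDOA, so the 2 cannot be told apart.

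PGK1, the phosphoglycerate kinase that makes the first ATP of glycolysis, was higher in both irradiated libraries. It had 12400 reads in the combination and 12966 with radiation alone, against 9469 with exercise alone and 8716 in control. The log2 ratio was 0.61 for radiation alone over control (0.57 to 0.65) and 0.47 for the combination over exercise alone (0.43 to 0.51), while that of the combination over radiation alone was 0.02 (−0.01 to 0.06). GAPDH had 68304 and 74765 reads in the irradiated libraries, against 66843 with exercise alone and 54576 in control, and its log2 ratios were 0.49 for radiation alone and 0.34 for exercise alone over control. GAPDH is often used as a reference gene, and its level here differed between libraries by more than counting error. ENO2, the enolase named for neurons, made up 19.7% of ENO1 and ENO2 reads in the combination and 21.2% with radiation alone, against 17% with exercise alone and 16.7% in control. ENO1, the common enolase, had log2 ratios of 0.11 for radiation alone over control and −0.08 for the combination over exercise alone. PKM and PGAM1, the phosphoglycerate mutase, had ratios of 0.31 and 0.30 in the first of these comparisons and 0.18 and 0.23 in the second. TPI1, the triose phosphate isomerase, had 0.26 and 0.15.

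LDHA, the subunit of lactate dehydrogenase that favors lactate formation, had 23019 reads in the combination and 21483 with radiation alone, against 20864 with exercise alone and 19156 in control. LDHB, the subunit that favors pyruvate, varied less, with 8934, 9298, 8890 and 8749 reads in the same order. LDHA was 72.0% of the reads of both in the combination (71.5 to 72.5), 69.8% with radiation alone, 70.1% with exercise alone and 68.6% in control (68.1 to 69.2).

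Phosphofructokinase and its regulators did not move as one. PFKFB3 and PFKFB4 make fructose-2,6-bisphosphate, which activates phosphofructokinase, and both are known HIF-1 targets. PFKFB4 had 824 reads in the combination, 1173 with radiation alone, 1095 with exercise alone and 763 in control. Either treatment alone was high and the combination was near control. The log2 ratio over control was 0.66 for radiation alone (0.53 to 0.79) and 0.57 for exercise alone (0.43 to 0.70), and that of the combination was 0.24 (0.09 to 0.38). PFKFB3 ran differently, with 7692 reads in the combination, 6833 with radiation alone, 6985 with exercise alone and 6063 in control, and it was highest in the combination. PFKFB4 made up 9.04% of PFKFB2, PFKFB3 and PFKFB4 reads in the combination (8.47 to 9.64), 13.2% with radiation alone, 12.3% with exercise alone and 9.91% in control (9.26 to 10.6). PFKFB2, the isoform known from heart, was the lowest member in the combination over control, with 601 reads against 873 and a log2 ratio of −0.41 (−0.57 to −0.26). It shares part of its span with YOD1, and PFKFB4 with UCN2.

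**Figure D3:**
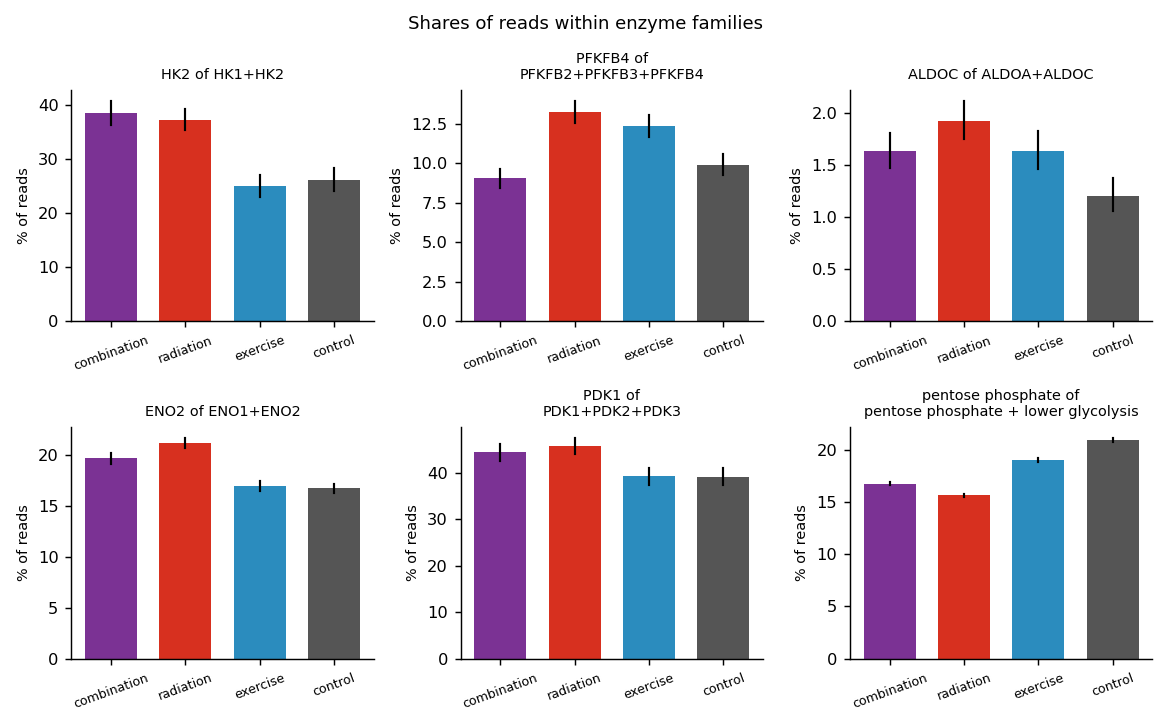
Percent of reads taken by 1 gene of an enzyme family, or by 1 pathway of a pair, in each library (bars), with 95% Wilson intervals (black lines) that cover counting error only. HK2, ENO2 and PDK1 take larger shares in both irradiated libraries, PFKFB4 takes larger shares under either treatment alone, and the pentose phosphate share is largest in control.

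Among the 3 catalytic isoforms, PFKL, the liver type, had log2 ratios over control of 0.27 in the combination, 0.33 with radiation alone and 0.17 with exercise alone. PFKM, the muscle type, had 1356 reads in the combination and 1302 with radiation alone, against 1211 with exercise alone and 1258 in control. ENO3, the muscle enolase and no member of the set, had 553 and 537 reads in the irradiated libraries, against 820 with exercise alone and 636 in control. Of the 8 skeletal muscle markers compared, 7 lay above 0 in both radiation comparisons and 1, MB, lay below 0 in both. The part of muscle in the PFKM reads was not tested. SENP1 overlaps PFKM, so some reads may be shared. PFKP, the platelet type and the one with the highest level per kilobase, had log2 ratios over control of 0.12, 0.14 and 0.22.

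At the entry to the TCA cycle, PDK1, a kinase that switches pyruvate dehydrogenase off and is induced by HIF-1, had 1231 reads in the combination and 1548 with radiation alone, against 1067 with exercise alone and 1058 in control. It was high in both irradiated libraries. Its log2 ratio was 0.59 for radiation alone over control (0.47 to 0.70) and 0.28 for the combination over exercise alone (0.16 to 0.40). As a share of PDK1, PDK2 and PDK3 reads it took 44.4% in the combination and 45.8% with radiation alone, against 39.2% with exercise alone and 39.1% in control. PDK3, another of these kinases, had 781 reads in the combination, 1068 with radiation alone, 940 with exercise alone and 927 in control. PDK2 and the pyruvate dehydrogenase subunits PDHA1 and PDHB had smaller log2 ratios, the largest being 0.225 for PDHB in the combination over radiation alone.

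PC, the pyruvate carboxylase that refills the cycle with oxaloacetate, was low in both irradiated libraries. It had 2086 reads in the combination and 2314 with radiation alone, against 2793 with exercise alone and 2825 in control. The log2 ratio was −0.25 for radiation alone over control (−0.33 to −0.17) and −0.34 for the combination over exercise alone (−0.43 to −0.26). LRFN4 overlaps PC, so some reads may be shared. PCK2, the mitochondrial phosphoenolpyruvate carboxykinase, had 780 reads in the combination, 763 with radiation alone, 670 with exercise alone and 890 in control. It was the lowest member with exercise alone over control, at −0.36 (−0.51 to −0.22). NRL overlaps PCK2 and had 916, 912, 827 and 1058 reads in the same order of groups, so reads of the 2 may be shared.

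The pentose phosphate genes did not share the direction of the glycolytic ones. With radiation alone all 6 lay below control, with a median log2 ratio of −0.22, against 9669 of all 19393 genes compared. In the combination over exercise alone 4 of 6 lay below 0, against 10108 of 19393, so that count is near the share of all genes. RPIA, the isomerase that forms ribose-5-phosphate, had 336 reads in the combination and 376 with radiation alone, against 486 with exercise alone and 476 in control. Its log2 ratio was −0.30 for radiation alone over control (−0.50 to −0.10) and −0.45 for the combination over exercise alone (−0.66 to −0.25). TKT, the transketolase that links the pathway back to glycolysis, had 16472 reads in the combination and 15007 with radiation alone, against 18729 with exercise alone and 18283 in control. PGD had 12504 and 12302 reads in the irradiated libraries, against 14373 with exercise alone and 13357 in control. TALDO1, the transaldolase, lay within 0.13 of 0 in all 5 comparisons. Summed, the 6 genes took 1251 CPM in the combination, 1121 CPM with radiation alone, 1305 CPM with exercise alone and 1240 CPM in control. Their reads were 16.7% of those of the pentose phosphate and lower glycolysis genes together in the combination and 15.6% with radiation alone. The share was 19.0% with exercise alone and 20.9% in control. Lower glycolysis took 6223, 6052, 5566 and 4683 CPM in the same order of groups, so the share moves with both sums. The 4 members that are known NRF2 targets (PGD, TKT, TALDO1 and IDH1) had medians of 0.07 in the combination, −0.05 with radiation alone and 0.07 with exercise alone over control. Under other scalings they went as low as −0.0044, −0.12 and 0.03, so that the first turned sign.

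None of the 11 TCA genes, cytosolic isoforms included, was at least 1.5-fold different in any of the 5 comparisons. IDH2, the mitochondrial isocitrate dehydrogenase that yields NADPH, was the highest of them over control in the combination and with radiation alone, with 2322 reads in the combination, 2275 with radiation alone, 1982 with exercise alone and 1813 in control. Its log2 ratio was 0.48 for the combination over control (0.39 to 0.57), 0.37 for radiation alone (0.28 to 0.46) and 0.18 for exercise alone (0.08 to 0.27). IDH1 and MDH1, the cytosolic isocitrate and malate dehydrogenases, were highest in the combination. IDH1 had 5517 reads there, against 5052 with radiation alone, 4791 with exercise alone and 4777 in control, and MDH1 had 2708, 2416, 2338 and 2312. CS, the citrate synthase of the first step, had a log2 ratio of −0.18 for radiation alone over control and 0.00 for the combination over control. OGDH, the subunits SUCLG1 and SUCLG2 of succinyl-CoA ligase, and FH, the fumarase, lay within 0.17 of 0 in all 5 comparisons.

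Exercise was likewise compared without radiation (exercise alone over control) and with it (combination over radiation alone). Of 44 members, 21 lay above 0 in both (15 with total counts), against 25.5% of all genes, and 1, PFKFB2, lay below 0 in both, against 24.9%. No member had a log2 ratio of at least 0.32 in both, against 1.64% of all genes. Of the 20 glycolytic genes 18 lay above 0 with exercise alone over control, and 10 did so in the combination over radiation alone, with medians of 0.20 and −0.01. The 11 TCA genes had medians of 0.05 and 0.14, and the 6 pentose phosphate genes 0.06 and 0.13. With exercise alone over control, the TCA and pentose phosphate medians were each 0.02 at their lowest under another scaling. PFKFB3 was the member with the highest ratio in the combination over radiation alone, at 0.26 (0.21 to 0.30), beside 0.25 (0.20 to 0.30) with exercise alone over control. PFKFB4 was the highest with exercise alone over control and the lowest in the combination over radiation alone, at −0.42 (−0.55 to −0.29).

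**Figure D4:**
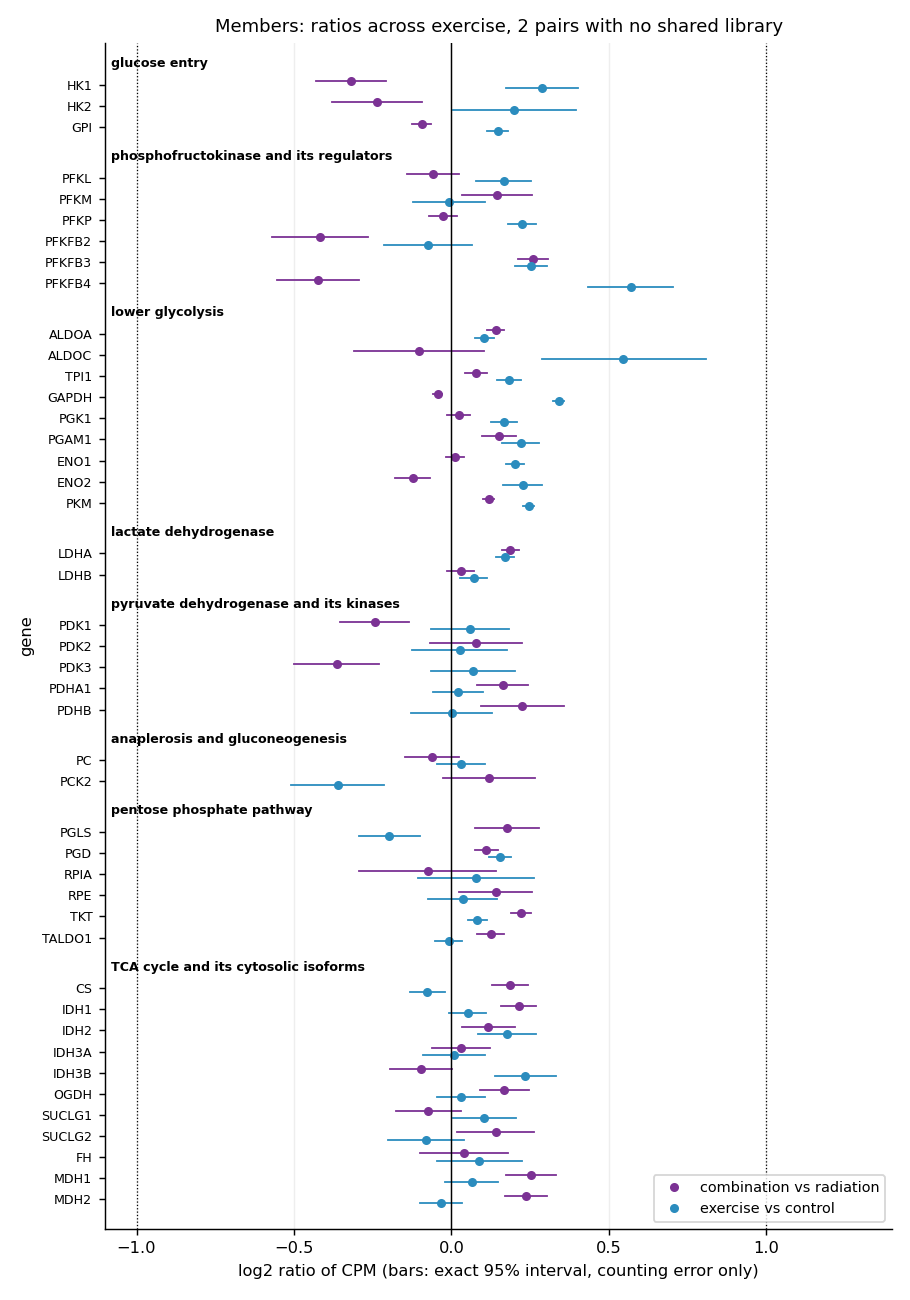
Log2 ratios of CPM (x axis) for 44 members (rows) in the 2 comparisons across exercise that share no library, with exact 95% intervals for counting error. Dotted lines mark 2-fold, which no point passes. PFKFB3 lies right of 0 in both comparisons, and HK1, HK2, GPI and PFKFB4 lie right of 0 without radiation and left of 0 with it.

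Some of these counts depend on how reads were assigned. GAPDH, ENO1, LDHA, PGK1 and TPI1, among others, have processed pseudogenes with near-identical sequence, and of the members 20 overlap another listed gene. Whether the counting used strand is not given in the sources used here, so reads of overlapping genes may be shared. ALDOA and LOC112694756 had nearly the same counts. KANSL1L, which overlaps RPE, had 148% of the reads of RPE. SENP1 had 135% of those of PFKM, and NRL had 120% of those of PCK2. How far the reads of these genes are shared was not tested.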

How the data were processed

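RNA of 4 A549 xenograft groups, with 1 library each, was analysed. The authors trimmed reads (cutadapt is named in the submitters' processing notes), used Bowtie2 2.3.4.1 for alignment on GRCh38 and featureCounts 1.6.0 for counting. They deposited raw read counts and FPKM for each gene. Bowtie2 places no read across an intron, and how mouse reads were treated is not stated here. The FPKM that the authors deposited imply, for 27 of 33 members with a value, a length within 2% of the full span with its introns, so they were used only as an alternative. Counts were scaled by TMM (edgeR 4.0.16, R 4.3.3) over the genes that met the count minimum (a mean of 20 reads), and log2 ratios used a prior of 0.5 counts. Intervals are exact (Clopper-Pearson) for ratios of counts and Wilson for shares, at 95%. For 0 reads the floor was set at 3 counts (0.0863 CPM with radiation alone). Calls were at least 2-fold, the study's threshold, and 1.5-fold. Symbols were matched to RefSeq for coordinates and to GENCODE exons for lengths (45 of 45 members). Further software was matplotlib 3.10.9, scipy 1.17.1, numpy 2.4.6 and pandas 2.3.3 under Python 3.11.15. The calculation of ratios was tested on simulated counts with planted fold changes. These counts held counting error only, with no spread between tumors and no TMM step. Named members were those at least 1.5-fold different, the highest and lowest of each branch, and the isoforms; a few others were picked after their values were seen. Some genes of the other lists are not reported here. Members and lists were chosen with earlier results of these data known. Alternatives were DESeq2 1.42.0 size factors, total counts, upper quartile, FPKM with 0.1 added, and no filter or a mean of 100 counts. Others were a prior of 2 counts, totals without mitochondrially encoded genes and, chosen after seeing the data, TMM over all genes.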

Additional observations from a re-analysis of the deposited data

Results flagged for a closer look

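For 13 members the 2 comparisons of the same treatment, which share no library, lay on opposite sides of 0, each with a counting interval that left out 0, and kept opposite signs under every scaling, prior and filter tried. The difference between them was not tested, since each group is 1 library. For radiation, the log2 ratio of the combination over exercise alone minus that of radiation alone over control was −0.61 for HK1, −0.25 for PFKP, −0.99 for PFKFB4, −0.19 for ENO1, −0.43 for PDK3 and −0.33 for IDH3B, a subunit of the NAD-dependent isocitrate dehydrogenase, where radiation alone was above control and the combination below exercise alone. It was 0.48 for PCK2 and 0.26 for CS, which went the other way. For exercise, the ratio of the combination over radiation alone minus that of exercise alone over control was −0.61 for HK1, −0.44 for HK2, −0.24 for GPI, −0.99 for PFKFB4, −0.38 for GAPDH and −0.35 for ENO2, and it was 0.37 for PGLS, the lactonase of the pentose phosphate pathway, and 0.26 for CS. Both forms of this difference use the same 4 values, so HK1, PFKFB4 and CS are 1 departure each and not a pair. PFKFB4, with 824 reads in the combination, 1173 with radiation alone, 1095 with exercise alone and 763 in control, had the largest. This pattern of opposite sides, with both intervals leaving out 0, was met by 8 of 44 members (18.2%) for each treatment, against 4.58% of all genes for radiation and 9.17% for exercise. Most members have many reads and so narrow intervals, which makes the rule easier to meet. By sign alone, 17 of 44 members were opposite for radiation and 22 for exercise, against 6369 and 9630 of 19393 genes.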

How the results depend on the processing

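Of 1980 recomputed member ratios, 1796 stayed within their counting interval and 184 did not. None of the 9 member ratios at least 1.5-fold in size changed sign under any alternative. Of all 220 member ratios, 15 changed sign under at least 1, and each of these was at most 0.05 in size. The median over members for exercise alone over control was 0.09, or 0.0500 with total counts and 0.0479 with FPKM. The lowest medians under any scaling were 0.05 for radiation alone over control, 0.10 for the combination over control, 0.07 for the combination over radiation alone and 0.07 over exercise alone. Without the count filter FBP1, with 6 reads or fewer, entered, and the members at least 2-fold different were 1 for exercise alone over control, 2 for radiation alone over control, 1 for the combination over radiation alone and 1 over exercise alone. With FPKM and 0.1 added, 0 passed 2-fold for radiation alone over control, since HK2 then had a log2 ratio of 0.80. At 1.5-fold the counts were 5 for radiation alone and 3 for the combination over control, and 1 for the combination over exercise alone. At a log2 ratio of at least 0.32 in size in both comparisons, 3 members had the same direction across radiation and 0 across exercise. Total counts moved the median of all genes by at most 0.08 in size. With it the pyruvate dehydrogenase genes above 0 for exercise alone over control were 2 of 5 in place of 5 of 5. Adding pseudogene counts to their parents was not run, because no pseudogene of a member was found by name. No paired analysis was possible because each group has 1 library, and no library could be left out. FBP1 was too shallow to compare. Between tumors the spread is unknown, and no interval here covers it.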

Other observations

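Genes of the same pathways outside the set also differed between groups, and some differed by more than any member. TIGAR, a p53 target whose product lowers fructose-2,6-bisphosphate, had 2183 reads in the combination and 1963 with radiation alone, against 952 with exercise alone and 976 in control. Its log2 ratio was 1.05 for radiation alone over control (0.93 to 1.16) and 1.27 for the combination over exercise alone (1.16 to 1.39). PDK4, a pyruvate dehydrogenase kinase that rises with fasting, had 1577 and 1482 reads in the irradiated libraries, against 966 with exercise alone and 916 in control, and log2 ratios of 0.78 for the combination over exercise alone and 0.73 for radiation alone over control.

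Of 11 glucose and monocarboxylate transporters compared, 8 lay above 0 in both radiation comparisons, against 32.6% of all genes. With total counts or FPKM the number was 7. SLC16A3, the lactate exporter MCT4, had 4736 and 4837 reads in the irradiated libraries, against 3266 with exercise alone and 3471 in control. SLC2A3, the high-affinity glucose transporter GLUT3, had 7108 reads in the combination, 5527 with radiation alone, 5778 with exercise alone and 3880 in control. Its log2 ratio was 0.45 for the combination over radiation alone (0.40 to 0.50) and 0.62 for exercise alone over control (0.56 to 0.68). PCK1, the cytosolic phosphoenolpyruvate carboxykinase, had 55 reads in the combination and 24 in control, and its log2 ratio of 1.30 had an interval of 0.61 to 2.08. PYGL, the liver glycogen phosphorylase, ran the other way, with 2369 and 2807 reads in the irradiated libraries, against 4342 with exercise alone and 3165 in control.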
